A study of Mus musculus with 9 samples.

Results

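The genes described here encode the lysosome's proton pump and the enzymes that work in the acid it makes, and they were chosen by name. They are 16 subunits of the vacuolar ATPase, 11 cathepsins, 5 glycosidases with the acid lipase Lipa, 3 lysosomal membrane proteins and the transcription factor Tfeb. All 37 were among the 41761 genes of the deposited table and all 37 passed the filter on low values described below. RNA was sequenced from primary cells of C57 wild-type mice, taken from the stromal fraction of inguinal white fat and turned into white adipocytes in culture. Sodium alginate, a seaweed polysaccharide, was present at 0 µM, 50 µM or 100 µM, with 3 libraries per dose.

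Cells of every dose, 0 µM included, had been confluent for 4 days when they received dexamethasone (1 µM) and IBMX (0.5 mM) with insulin (1 µg/ml). The protocol also gives rosiglitazone (1 µM), which the design text leaves out. From day 2 the medium held insulin and rosiglitazone, and alginate stayed at its dose. Rosiglitazone itself activates the adipogenic receptor PPARG, so the 0 µM cells were induced cells and not untreated ones. Sample titles say day 6 whereas the protocol has RNA collected on day 7. Titles of the 100 µM libraries also name 50 µM, and here their dose follows the treatment label and library name. No label ties a library to its own animal or culture dish, so the p-values below measure the spread between libraries, which may be technical.

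Lysosomes are acid compartments in which proteins, glycans, glycogen and lipids are broken down. The vacuolar ATPase acidifies them. Its V1 sector, in the cytosol, hydrolyses ATP and turns a rotor, and its V0 sector, in the membrane, carries protons into the lumen. Cathepsins are proteases that mature and work at low pH. TFEB is a basic helix-loop-helix factor that binds E-box letters of the kind CACGTG in promoters of many lysosomal genes, and its activity depends largely on where the protein sits in the cell, which RNA levels do not show. Adipocytes use lysosomes in autophagy and in acid lipolysis, and macrophages of fat tissue are rich in several of the same enzymes.

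Promoter letters are shown first because TFEB is itself among the members. RefSeq windows from 250 bases before to 50 bases after the start site, on GRCm38.p6, were available for 30 of the 37 genes. Each motif was searched on both strands, and all 3 read the same on either strand. The full CLEAR consensus of TFEB targets, longer by 1 base on each side than the next motif, was in none of the 30 and in 0.37% of the 27025 genes of the table. Its inner letters TCACGTGA, which contain CACGTG, were in 6 of the 30 genes (20.0%), against 1.12% of all genes with a window. Among the 8386 genes with a window that were tested here and are not members, the share was 2.24%. The core CACGTG alone was in 12 of the 30 (40.0%), against 8.09% of all genes with a window and 12.0% of those same tested genes that are not members. These shares are descriptions without a test, and a match is not evidence of binding. The stretches below hold the 6 genes with TCACGTGA, in capitals, with 15 bases on either side.
Atp6v0d1, chr8:105566046-105566083, minus strand: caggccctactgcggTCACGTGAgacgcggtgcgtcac
Atp6v0e, chr17:26676383-26676420, plus strand: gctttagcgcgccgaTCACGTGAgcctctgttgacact
Atp6v1a, chr16:44139369-44139406, minus strand: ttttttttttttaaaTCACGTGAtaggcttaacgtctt
Ctsa, chr2:164833745-164833799, plus strand: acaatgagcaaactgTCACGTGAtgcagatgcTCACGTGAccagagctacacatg
Ctsd, chr7:142387904-142387941, minus strand: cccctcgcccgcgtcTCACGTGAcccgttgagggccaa
Mcoln1, chr8:3500458-3500495, plus strand: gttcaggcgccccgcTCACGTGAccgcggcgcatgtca

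Lamp1 and Atp6v0b held several copies of the core, none of them within a full TCACGTGA, shown here with CACGTG in capitals. Lamp1 had 4 copies and Atp6v0b had 2, all within 61 bases upstream of the start site.
Lamp1, chr8:13159085-13159166, plus strand: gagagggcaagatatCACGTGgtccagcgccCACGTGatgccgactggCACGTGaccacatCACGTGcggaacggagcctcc
Atp6v0b, chr4:117887327-117887380, minus strand: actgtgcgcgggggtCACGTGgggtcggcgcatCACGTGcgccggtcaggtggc
Ctsf, Ctsl, Gaa and Glb1 also held the core. In the comparison of 100 µM with 0 µM described below, Atp6v0b, Atp6v0e, Atp6v1a and Ctsd rose, Ctsl fell, and Atp6v0d1, Ctsa, Ctsf, Gaa, Glb1, Lamp1 and Mcoln1 did not pass the test.

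Values are FPKM, sequenced fragments per kilobase of a gene after scaling for library depth, so they can be compared between genes. Whole reads rebuilt from these values, as described under processing, summed over genes to 14019672 to 17094467 per library. A gene was tested if it reached 1 FPKM in at least 3 of the 9 libraries, 12635 genes in all. Log2 fold changes are differences of log2(FPKM + 1) from 1 limma fit over all libraries, which understates changes of low genes. They are given in brackets as the change ± its standard error, and a change counts as called where the p-value, adjusted by Benjamini and Hochberg over all genes tested, is below 0.05. The 50 µM library 3 stood apart from the rest on the second principal component (-19.1, the others -4.62 to 11.4), and member calls that change without it are named below.

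The culture carried these genes at very different levels. Over all 9 libraries 5 members averaged above 100 FPKM, 28 lay between 10 and 100 FPKM and 4 (Neu1, Ctso, Atp6v0c and Tfeb) were under 10 FPKM. Ctsd, the aspartic protease cathepsin D, was the member with the highest level, 36th among 20461 protein-coding genes. Ctsb followed at 100th, Ctsl at 106th, the membrane glycoprotein gene Lamp1 at 138th and Ctsz at 463rd. Together the 37 genes took 0.872% ± 0.0144 of all rebuilt reads without alginate, 0.869% ± 0.00955 with 50 µM and 0.860% ± 0.0120 with 100 µM (SD, n = 3). The outer doses differed in this share by about 1 SD of the libraries within a dose. Summed per gene length, their level was 2761 ± 29.1 FPKM at 0 µM, 2745 ± 46.6 at 50 µM and 2840 ± 41.1 at 100 µM, where every library was above those at 0 µM. FPKM summed over all genes was also higher at 100 µM (317350 to 329049) than at 0 µM (304673 to 311130). As a share of that sum the members were lower in every 100 µM library than in any at 0 µM.

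At 100 µM against 0 µM, 18 of the 37 genes were called, 11 higher and 7 lower. Over all genes tested, 18.3% were called higher, 15.6% lower and 33.9% in either direction, so the members' share of called genes (18 of 37) stands beside a background in which 4279 genes changed. At an unadjusted p below 0.05 there were 20 members, beside 43.4% of all genes. The libraries of the doses did not overlap for 21 members, beside 47.9% of all genes. The median log2 fold change was 0.02 over the members and 0.01 over all genes. By role, of the 16 proton pump genes 8 rose and none fell (median log2 fold change 0.19), and of the 11 cathepsins 2 rose and 5 fell (median -0.13). The balance of calls depends on scaling. For the pump it was 5 higher and 2 lower after rescaling to a common sum, 6 and 2 after scaling to total reads, 7 and 2 after quantile normalization or with voom on rebuilt reads, and the lower calls were the accessory subunits Atp6ap1 and Atp6ap2. For all 37 genes, rescaling each library to a common sum gave 7 members higher and 11 lower, scaling to total reads gave 8 and 11, quantile normalization gave 9 and 12, and voom on rebuilt reads gave 9 and 13.

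**Figure D1:**
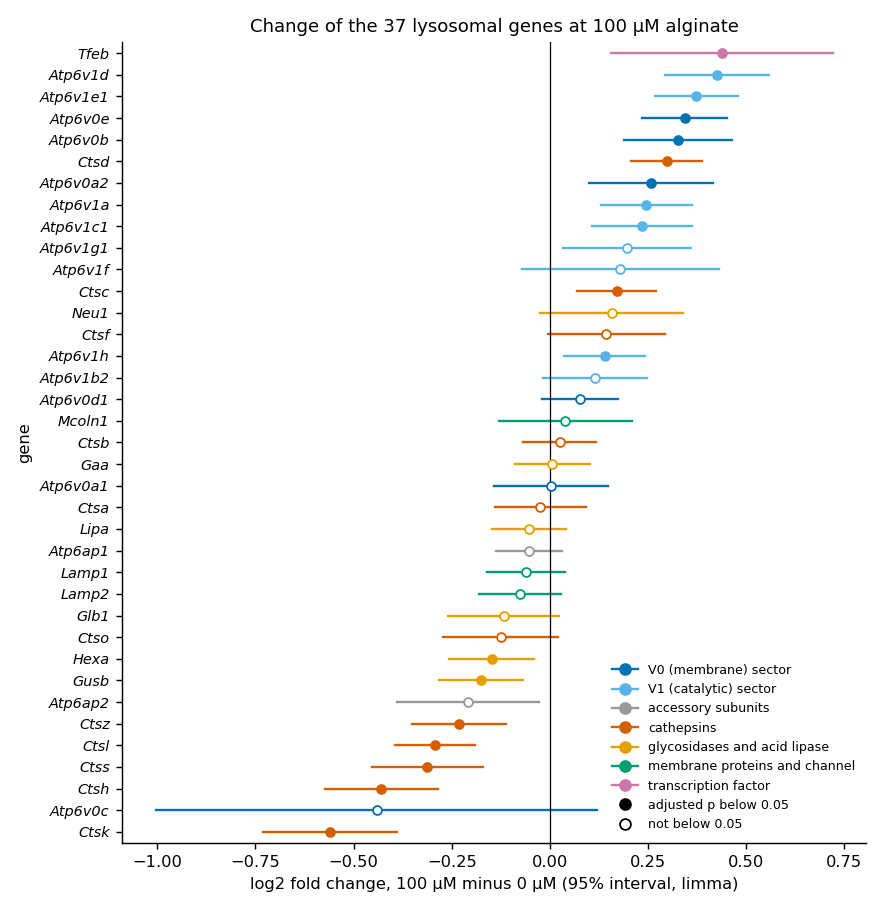
Log2 fold change of each of the 37 genes between 100 µM and 0 µM alginate (x axis, 100 µM minus 0 µM on the log2(FPKM + 1) scale), ordered by size and coloured by role, with bars for the limma 95% interval. Filled points are the 18 called genes, with Tfeb at the top (0.44), Ctsk at the bottom (-0.56) and every called pump subunit to the right of 0.

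In the V1 sector 5 of 8 genes rose and none fell (median log2 fold change 0.22). Atp6v1d, a subunit of the central rotor, was at 55.5, 52.5 and 51.7 FPKM in the 0 µM libraries, 57.1, 52.8 and 58.2 at 50 µM, and 67.1, 72.1 and 76.6 at 100 µM. Each 100 µM library lay above every other library. Its mean rose from 53.2 ± 1.99 to 71.9 ± 4.78 FPKM (mean ± SD, n = 3). The log2 fold change was 0.43 with a standard error of 0.059 (limma adjusted p = 0.000595). Atp6v1e1, of the peripheral stalk that holds the sector still while the rotor turns, read 43.6, 44.9 and 45.6 FPKM at 0 µM, 49.3, 49.8 and 49.4 at 50 µM, and 61.1, 59.3 and 54.4 at 100 µM. The 3 doses did not overlap at any point, with 50 µM between the others. From 44.7 ± 1.04 FPKM it rose to 58.2 ± 3.47 (0.37 ± 0.0471, limma adjusted p = 0.000358). Among the other V1 genes that rose, Atp6v1a, the catalytic subunit that hydrolyses ATP, went from 38.5 to 46.0 FPKM (log2 fold change 0.25). Atp6v1c1, which takes part in joining V1 to V0, went from 33.5 to 39.7 FPKM (0.23), and did not pass after rescaling to a common sum (limma adjusted p = 0.0726). Atp6v1h, a regulatory subunit, went from 11.6 to 12.9 FPKM (0.14, limma adjusted p = 0.0419), and its call was lost under 14 of 19 alternatives, among them leaving out any library other than 2 and 3 of 50 µM (adjusted p up to 0.261). The nucleotide-binding subunit Atp6v1b2 (0.12), Atp6v1f (0.18) and Atp6v1g1 (0.20) did not pass, with limma adjusted p of 0.167, 0.252 and 0.0652. Summed over the sector, V1 levels ran from 272 to 279 FPKM without alginate, from 282 to 297 with 50 µM and from 325 to 343 with 100 µM, so the libraries of the 3 doses did not overlap.

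In the V0 sector 3 of 6 genes rose and none fell (median log2 fold change 0.17). Atp6v0e, a small membrane subunit, was at 33.9, 34.9 and 32.7 FPKM in the 0 µM libraries, 35.4, 32.3 and 35.0 at 50 µM, and 41.9, 44.5 and 43.2 at 100 µM. The lower doses overlapped and the 100 µM libraries stood clear of both. Its mean went from 33.8 ± 1.11 to 43.2 ± 1.28 FPKM (0.34 ± 0.048, limma adjusted p = 0.000621). Atp6v0b, part of the proteolipid ring through which protons pass, read 39.1, 42.4 and 42.2 FPKM at 0 µM, 46.7, 41.4 and 40.1 at 50 µM, and 53.2, 52.2 and 50.5 at 100 µM. Again only the 100 µM libraries stood apart. It rose from 41.3 ± 1.84 to 52.0 ± 1.35 FPKM (0.33 ± 0.0606, limma adjusted p = 0.00293). Atp6v0a2, an isoform of the large subunit that forms the proton path beside the ring, rose from 13.5 to 16.3 FPKM (0.26, limma adjusted p = 0.0195). That call was lost after rescaling to a common sum or to total reads, and without library 2 or 3 of 0 µM or library 3 of 100 µM (adjusted p up to 0.12). Its sister isoform Atp6v0a1 was at 27.9 and 28.0 FPKM (0.00, 95% interval -0.14 to 0.15). Atp6v0d1, which links the rotor to the ring, had the highest level of the sector and did not pass (62.0 and 65.5 FPKM, 0.08, interval -0.02 to 0.17). Summed V0 levels ran from 177 to 186 FPKM without alginate, from 182 to 190 with 50 µM and from 205 to 209 with 100 µM.

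Atp6v0c, the main proteolipid of the ring, is a special case in this table. It was listed at 2.34, 2.36 and 2.76 FPKM at 0 µM, 2.52, 1.58 and 2.34 at 50 µM, and 2.37, 0.625 and 2.08 at 100 µM, far under the other ring subunit and on 6 to 30 reads per library. It did not pass the test (-0.44 ± 0.249, limma adjusted p = 0.208), and without the 100 µM library 2 the log2 fold change was -0.11. The table also holds 2 processed pseudogene rows with the same protein name, both listed at 0, and what became of reads that match several copies is not given in the sources used here. Of the accessory subunits, which help assemble and sort the pump, Atp6ap1 was at 58.6 and 56.5 FPKM (-0.05) and Atp6ap2, known as the prorenin receptor, at 24.1 and 20.7 FPKM (-0.21, limma adjusted p = 0.0728). Neither passed, 1 of them had an unadjusted p below 0.05, and voom on rebuilt reads called both lower. Atp6ap2 has an unprocessed pseudogene row at 13.8 and 13.2 FPKM, so its reads may have been split. Atp6v1g1 has 5 processed pseudogene rows, all at or near 0.

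**Figure D2:**
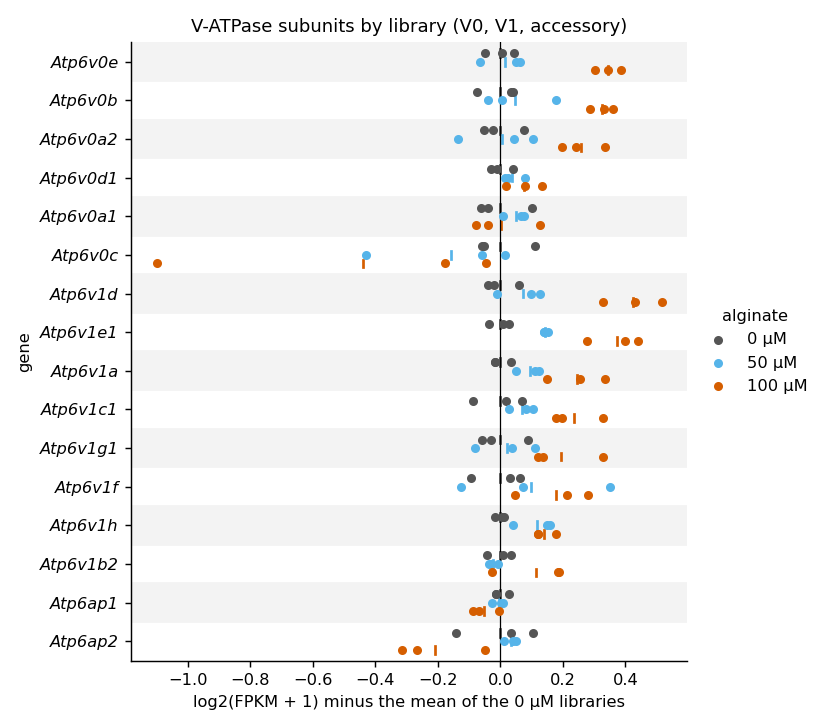
Level of each pump subunit in each library as log2(FPKM + 1) minus the mean of the 0 µM libraries (x axis), with 1 row per gene, points for the 3 libraries of each dose and short bars for the dose means. The 100 µM points of Atp6v0e, Atp6v0b, Atp6v1d and Atp6v1e1 all lie to the right of the other doses, and the low outlying point is Atp6v0c in the 100 µM library 2.

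Among the cathepsins, Ctsd rose while its abundant neighbour Ctsl fell. Ctsd was at 563, 586 and 572 FPKM at 0 µM, 623, 619 and 623 at 50 µM, and 720, 712 and 684 at 100 µM, with no overlap between any of the doses. The mean went from 574 ± 11.9 to 705 ± 18.7 FPKM (0.30 ± 0.0405, limma adjusted p = 0.000542), and quantile normalization reduced the change to 0.14 (limma adjusted p = 0.0284). Ctsl, the cysteine protease cathepsin L, read 394, 371 and 388 FPKM at 0 µM, 345, 322 and 343 at 50 µM, and 321, 313 and 307 at 100 µM. The doses again did not overlap, in the opposite order. It fell from 385 ± 12.1 to 314 ± 6.75 FPKM (-0.29 ± 0.0452, limma adjusted p = 0.00109). The ratio of Ctsd to Ctsl levels was 1.49 ± 0.0787 at 0 µM, 1.85 ± 0.0663 at 50 µM and 2.25 ± 0.0226 at 100 µM (SD, n = 3). Ctsb, the third abundant protease, was at 351, 371 and 361 FPKM at 0 µM, 363, 364 and 361 at 50 µM, and 355, 379 and 367 at 100 µM. Its libraries overlapped throughout, and the log2 fold change between the outer doses was 0.02 ± 0.0416 (95% interval -0.07 to 0.12, limma adjusted p = 0.689). Together Ctsd, Ctsb and Ctsl made up 81.0% of summed cathepsin FPKM without alginate, 82.1% with 50 µM and 83.6% with 100 µM. The sum over the 11 cathepsins was 1629 ± 19.1 FPKM at 0 µM, 1609 ± 27.7 at 50 µM and 1658 ± 22.1 at 100 µM, so the total stayed within a narrow range while the shares of Ctsd and Ctsl moved in opposite directions.

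Ctsk had the largest fall of the called members. Cathepsin K cleaves collagen and is best known from osteoclasts, and stromal cells make it too. It was at 38.5, 38.0 and 41.1 FPKM at 0 µM, 28.7, 27.4 and 34.1 at 50 µM, and 27.2, 25.4 and 26.2 at 100 µM. Every library with alginate lay below every library without it. The mean went from 39.2 ± 1.64 to 26.3 ± 0.943 FPKM (-0.56 ± 0.0758, limma adjusted p = 0.000521). Ctsh, an aminopeptidase, read 27.3, 29.2 and 28.5 FPKM at 0 µM, 24.9, 22.6 and 26.6 at 50 µM, and 20.9, 21.9 and 19.6 at 100 µM. The 3 doses did not overlap, and it fell from 28.3 ± 0.926 to 20.8 ± 1.12 FPKM (-0.43 ± 0.0636, limma adjusted p = 0.000863).

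Ctss, the cathepsin that trims the invariant chain in antigen-presenting cells, behaved differently at the middle dose. It was at 24.3, 25.9 and 26.0 FPKM at 0 µM, 26.6, 24.5 and 26.5 at 50 µM, and 19.3, 19.3 and 22.2 at 100 µM. The lower doses overlapped and the 100 µM libraries lay below both. It fell from 25.4 ± 0.965 to 20.3 ± 1.68 FPKM (-0.31 ± 0.0624, limma adjusted p = 0.0044). Ctsz, a carboxypeptidase, read 110, 118 and 110 FPKM at 0 µM, 107, 99.2 and 110 at 50 µM, and 91.2, 97.5 and 98.7 at 100 µM. It fell from 113 ± 4.5 to 95.8 ± 4.02 FPKM (-0.23 ± 0.053, limma adjusted p = 0.00885). Ctsz overlaps Nelfcd on the opposite strand, whose reads equalled 30.0% of those of Ctsz and which rose by 0.19, and since the use of strand is not stated their reads may be mixed.

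The remaining cathepsins changed less. Ctsc, a dipeptidyl peptidase that activates serine proteases of immune cells, rose from 24.8 to 28.0 FPKM (0.17, limma adjusted p = 0.0161), and lost its call under 6 of 19 alternatives, among them leaving out library 1 of 0 µM or library 2 of 100 µM (adjusted p up to 0.14). Ctsa, which protects the lysosomal sialidase and galactosidase as well as cutting peptides, was at 51.8 and 50.9 FPKM (-0.02). Ctso was at 7.04 and 6.36 FPKM (-0.13), and Ctsf at 20.8 and 23.0 FPKM (0.14). None of these last 3 passed the test between the outer doses.

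Of the glycosidases and the acid lipase 2 fell and none rose at 100 µM against 0 µM, beside 15.6% of all genes lower and 18.3% higher. Voom on rebuilt reads called 3 lower. Gusb, the glucuronidase that cuts glycosaminoglycans, was at 22.8, 23.5 and 21.1 FPKM at 0 µM, 23.2, 22.5 and 22.2 at 50 µM, and 19.8, 19.4 and 20.1 at 100 µM. Only the 100 µM libraries stood apart. It fell from 22.5 ± 1.24 to 19.8 ± 0.367 FPKM (-0.18 ± 0.0469, limma adjusted p = 0.0181), and did not pass without library 1 or 2 of 0 µM or library 2 of 100 µM (adjusted p up to 0.066). Hexa, the alpha subunit of hexosaminidase, fell from 84.2 to 76.0 FPKM (-0.15, limma adjusted p = 0.0407), a call lost under 8 of 19 alternatives, among them leaving out library 2 or 3 of 0 µM or any library of 100 µM (adjusted p up to 0.119). Gaa, which releases glucose from glycogen, was at 42.2 and 42.3 FPKM (0.01), Neu1, the sialidase, at 6.58 and 7.43 FPKM (0.16), and Glb1, the galactosidase, at 26.7 and 24.5 FPKM (-0.12). Glb1 was called lower after rescaling to a common sum, after quantile normalization and with voom. It shares its strand with the overlapping Tmppe, whose reads equalled 37.0% of those of Glb1. Lipa, which hydrolyses cholesteryl esters and triglycerides in the lysosome, was at 33.5, 32.4 and 34.7 FPKM at 0 µM, 33.7, 35.1 and 35.0 at 50 µM, and 31.9, 33.4 and 31.7 at 100 µM. The outer doses overlapped, and the difference was -0.05 ± 0.0417 (95% interval -0.15 to 0.04, limma adjusted p = 0.376). After scaling to total reads Lipa was called lower.

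None of the 3 membrane proteins passed the limma test at 100 µM against 0 µM, none had an unadjusted p below 0.05, and voom on rebuilt reads called 2 lower. Lamp1, a glycoprotein that lines the lysosomal membrane, was at 278, 296 and 288 FPKM at 0 µM, 285, 284 and 299 at 50 µM, and 272, 285 and 269 at 100 µM. The log2 fold change was -0.06 ± 0.0439 (95% interval -0.16 to 0.04, limma adjusted p = 0.324). Lamp2, its relative needed for fusion with autophagosomes, read 79.8, 74.1 and 79.9 FPKM at 0 µM, 72.9, 70.5 and 68.1 at 50 µM, and 71.4, 74.7 and 75.5 at 100 µM (-0.08 ± 0.0461, limma adjusted p = 0.241). Mcoln1, the calcium channel that signals from lysosomes, read 11.8, 12.4 and 10.6 FPKM at 0 µM, 11.1, 11.7 and 11.0 at 50 µM, and 10.9, 11.8 and 13.2 at 100 µM. Its doses overlapped (0.04 ± 0.0748, 95% interval -0.13 to 0.21, limma adjusted p = 0.727).

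Tfeb was scarce and had the largest positive log2 fold change of the 37. It was at 1.41, 1.00 and 1.32 FPKM at 0 µM, 1.64, 1.33 and 1.13 at 50 µM, and 2.07, 2.35 and 1.70 at 100 µM, on 85 to 196 reads per library. The 100 µM libraries were above all others, by little for the lowest of them, and the lower doses overlapped. Its mean rose from 1.24 ± 0.215 to 2.04 ± 0.328 FPKM (0.44 ± 0.125, limma adjusted p = 0.0245). The call was lost without the 0 µM library 2 (limma adjusted p = 0.0836), without the 100 µM library 1 (0.0639) and without the 100 µM library 2 (0.0885), and with no filter on low values (0.0595).

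**Figure D3:**
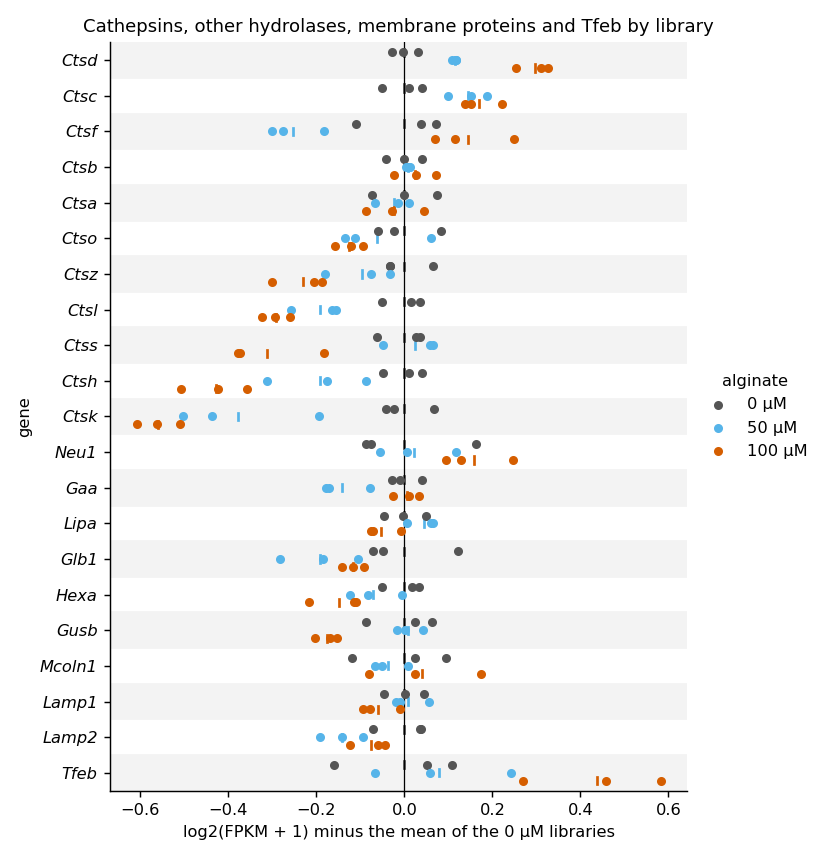
Level of each cathepsin, glycosidase, lipase, membrane protein gene and Tfeb in each library as log2(FPKM + 1) minus the mean of the 0 µM libraries (x axis), with points for the 3 libraries of each dose and short bars for the dose means. The 100 µM points of Ctsd lie right of the other doses, those of Ctss, Ctsh and Gusb left of them, and those of Ctsb, Ctsa and Mcoln1 on both sides of 0.

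At 50 µM against 0 µM no member was called, where limma called 0.791% of all genes tested (45 genes higher and 55 lower, or 8 and 5 without the 50 µM library 3). At an unadjusted p below 0.05 there were 4 members higher and 7 lower, beside 14.4% of all genes. Voom on rebuilt reads called 2 members lower, Ctsk and Ctsl. The median log2 fold change of the members was 0.01. The libraries did not overlap for 13 of 37 members, beside 20.7% of all genes. Ctsk had the smallest p, at 39.2 FPKM without and 30.1 ± 3.59 FPKM with alginate (-0.38 ± 0.0758, limma adjusted p = 0.0633). Without the 50 µM library 3, the highest of its dose for Ctsk, the change was -0.47 and passed (limma adjusted p = 0.0423). Next came Ctsl at -0.19 (limma adjusted p = 0.0917), Ctsf at -0.25 (0.113), Gaa at -0.14 (0.15) and Ctsc at 0.15 (0.163). No pump subunit had an adjusted p below that of Atp6v1e1 (0.14, limma adjusted p = 0.196).

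At 100 µM against 50 µM, 11 members were called, 8 higher and 3 lower, beside 13.2% of all genes higher, 12.0% lower and 25.1% in either direction. The libraries did not overlap for 20 members, beside 40.4% of all genes. This comparison shares its 100 µM libraries with the one above, so the calls are not independent of it. Of the pump, Atp6v0a2, Atp6v0b, Atp6v0e, Atp6v1d and Atp6v1e1 rose and none fell, with log2 fold changes of 0.25, 0.28, 0.33, 0.35 and 0.23. Ctsd rose by 0.18 (limma adjusted p = 0.0108), a change of 0.00 under quantile normalization (limma adjusted p = 0.959). That call was also lost with no filter on low values and after scaling to total reads. Ctsf, a cysteine protease of the lysosome, rose from 17.2 ± 0.788 to 23.0 ± 1.58 FPKM (0.40 ± 0.0656, limma adjusted p = 0.00252), and Gaa rose from 38.1 to 42.3 FPKM (0.15, limma adjusted p = 0.0304). Ctss fell by 0.34, Ctsh by 0.24 and Gusb by 0.18. The calls of Atp6v0a2, Ctsh, Gaa and Gusb were lost without 1 or more of the 50 µM or 100 µM libraries, with limma adjusted p up to 0.132, 0.0813, 0.254 and 0.0661 over the alternatives. Without the 50 µM library 3, Atp6v0a2, Ctsh and Gaa had limma adjusted p of 0.0728, 0.0743 and 0.0841. The calls by scaling were 6 higher and 9 lower after rescaling to a common sum, 5 and 10 after scaling to total reads, 7 and 9 after quantile normalization and 8 and 10 with voom.

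Across the 3 doses the F test of the limma fit called 18 members, beside 30.5% of all genes. Mean FPKM went up at each step of dose for 16 members and down at each step for 8, while 6 were highest and 7 lowest at 50 µM. The shape differed by gene. Ctsd and Atp6v1e1 had intermediate levels at 50 µM. Atp6v0e, Atp6v0b and Tfeb were close to the 0 µM level at 50 µM and higher at 100 µM, and Ctss was close to it and then lower. The mean of Ctsk at 50 µM lay nearer to that at 100 µM than to that at 0 µM. Ctsf was lowest at 50 µM, with libraries at 18.1, 16.6 and 17.0 FPKM, below all those at 0 µM (19.1, 21.8 and 21.3) and at 100 µM (21.8, 24.8 and 22.5).

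**Figure D4:**
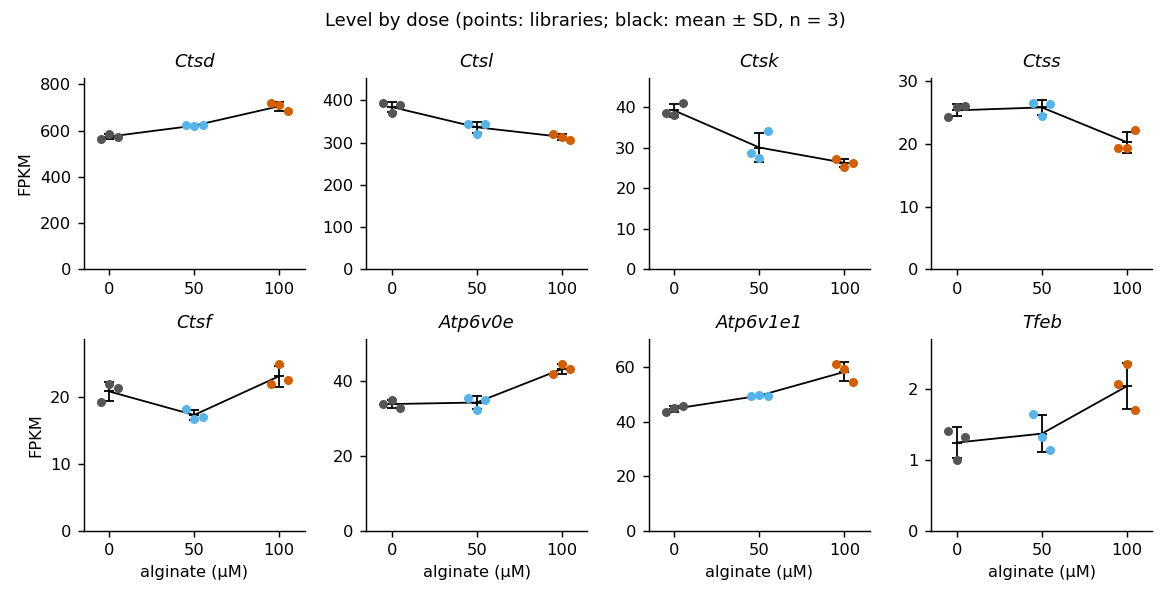
FPKM against alginate dose (x axis, µM) for 8 genes, each on its own y axis from 0, with points for libraries and black marks for the mean ± SD of 3 libraries joined by a line. Ctsd climbs from 574 to 705 FPKM and Ctsk drops from 39.2 to 26.3 FPKM, whereas Ctss departs from its 0 µM level only at 100 µM and Ctsf dips to 17.2 FPKM at 50 µM.

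Several of these genes are also expressed by cells other than adipocytes, and markers of those cells moved with dose. Adipocyte markers were abundant. They summed to between 5940 and 6128 FPKM in the 0 µM libraries, between 6540 and 6985 at 50 µM and between 9066 and 9711 at 100 µM, with 16 of 16 tested markers higher at 100 µM than at 0 µM. Over all genes tested 18.3% were called higher and 15.6% lower in that comparison. The acyltransferase genes Agpat2 and Dgat2 went from 399 to 758 and from 51.6 to 86.8 FPKM, and the lipase gene Lipe from 126 to 209. At 50 µM against 0 µM 4 adipocyte markers were called higher, beside 0.356% of all genes, and voom called 6 higher. No gene was called higher there without library 1 or 2 of 0 µM. At a limma unadjusted p below 0.05, 10 adipocyte markers were higher, where 14.4% of all genes had such a p. Leptin (Lep), also on that list, was at or near 0 in every library. The pump genes that rose, Ctsd and Tfeb moved in the same direction as these markers, whose part in those results was not tested. Of 13 tested macrophage and myeloid markers 10 were lower at 100 µM than at 0 µM and none higher (median log2 fold change -0.33), and at 50 µM none was called, 1 had an unadjusted p below 0.05 and voom called none. Summed over the 18 markers found, their level lay between 364 and 395 FPKM at 0 µM, between 397 and 403 at 50 µM and between 310 and 325 at 100 µM. Cd14 went from 35.2 to 25.0 FPKM, Fcgr3 from 20.3 to 14.2 and Cd68, itself a lysosomal membrane protein, from 37.6 to 29.7. Ptprc was at 0.400 FPKM at 0 µM and Itgam was at 0 in nearly every library. A pair of rows without a symbol is described as lysozyme C-2, a product of macrophages. These rows were at 547 and 458 FPKM at 0 µM, each above the marker sum, which does not include them. They fell by 0.34 and by 0.48 at 100 µM against 0 µM. In the same libraries Ctss was level at 50 µM and lower at 100 µM, and the part of these cells in the fall of Ctss, Ctsh, Ctsz and Gusb was not tested. In bulk RNA, fewer cells of a type and less RNA per cell cannot be told apart.

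Most progenitor and stromal markers moved with Ctsk and Ctsl. Of 13 tested, 10 fell at 100 µM against 0 µM (median log2 fold change -0.32), with Pdgfra from 52.1 to 32.3 FPKM, Pdgfrb from 49.4 to 35.8 and Anxa3 from 21.7 to 10.7. None was called higher there, and 1 was higher at a limma unadjusted p below 0.05. Over all genes tested 15.6% were called lower and 18.3% higher. At 100 µM against 50 µM, 5 were called lower and 1, Lum, was called higher. The 15 found summed to between 3498 and 3750 FPKM at 0 µM, between 2889 and 3035 at 50 µM and between 2580 and 3005 at 100 µM, and 2 markers were called lower at 50 µM against 0 µM. Neither of these calls held without any 1 of the 0 µM libraries or without library 2 or 3 of 50 µM. At a limma unadjusted p below 0.05, 7 markers were lower and 0 higher at 50 µM against 0 µM, beside 14.4% of all genes. Voom on rebuilt reads called 6 lower there, and the median log2 fold change in limma was -0.26. The part of these cells in the Ctsk and Ctsl results was not tested. Endothelial markers fell in 7 of 8 cases at 100 µM against 0 µM, beside 15.6% of all genes. Cdh5 went from 51.7 to 41.9 FPKM, Pecam1 from 31.0 to 24.8 and Emcn from 8.66 to 6.11. The sums were 139 to 152, 137 to 145 and 116 to 122 FPKM over the doses, and the part of endothelial cells was not tested either. Osteoclast markers, listed because of Ctsk, summed to only 7.56 to 8.66 FPKM, with Dcstamp at 0 in every library. Of the 3 osteoclast markers tested none was called and 2 had an unadjusted p below 0.05 (Acp5 0.03, Mmp9 0.24, Nfatc1 -0.25), and voom called 1 lower.

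Other genes of the pump and its assembly were taken as a list. Of 16 found, 9 were tested at 100 µM against 0 µM, and 1 rose and 1 fell. Over all genes tested 18.3% rose and 15.6% fell. Tmem199, which helps assemble the pump, rose from 12.8 to 16.2 FPKM (0.32). Atp6v0d2, an isoform of Atp6v0d1 best known from osteoclasts and macrophages, fell from 3.15 to 1.76 FPKM (-0.59), and Wdr7, which binds the pump, was at 8.54 and 10.1 FPKM and did not pass. Atp6v1e2 and Atp6v1g3, isoforms of other tissues, were at 0 in every library.

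Among 31 other lysosomal hydrolases and activators 2 rose and 9 fell (median log2 fold change -0.12, against 0.01 over all genes), beside 18.3% of all genes higher and 15.6% lower. Voom on rebuilt reads called 2 higher and 17 lower in this list. Plbd1, a phospholipase-like protein, rose from 5.29 ± 0.252 to 10.7 ± 0.615 FPKM (0.89, limma adjusted p = 2.1e-05). Lgmn, the asparaginyl protease that processes cathepsins, fell from 100 to 81.0 FPKM (-0.31). Of 19 other membrane proteins 3 rose and 3 fell (3 and 6 with voom), with the cholesterol carrier Npc2 up from 240 to 299 FPKM (0.32) and the tetraspanin Cd63 down from 415 to 336 (-0.31).

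Genes that deliver enzymes to lysosomes were tested as a list of 7. Of these 2 rose and 1 fell, beside 18.3% of all genes higher and 15.6% lower. Sort1, the sorting receptor sortilin, rose from 47.8 ± 0.315 to 68.4 ± 1.51 FPKM (0.51, limma adjusted p = 5.08e-05). Gnptab, which starts the mannose 6-phosphate tag on hydrolases, rose from 29.4 to 38.1 FPKM (0.36), and Igf2r, a receptor for that tag, fell from 24.4 to 21.1 FPKM (-0.20). The cystatins Cst3 (173 and 189 FPKM) and Cstb (96.3 and 98.0 FPKM), inhibitors of cysteine cathepsins, did not pass, with no unadjusted p below 0.05 and no call with voom.

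The factors related to TFEB and the lysosomal nutrient sensors included 5 genes that rose and 2 that fell of 15 tested (median log2 fold change 0.15). Over all genes tested 18.3% rose and 15.6% fell. Mtor, the kinase that holds TFEB in the cytosol, rose from 14.8 to 20.7 FPKM (0.46), Lamtor1, which anchors the sensing complex to the membrane, from 70.1 to 91.6 (0.38), and Rragc, one of its GTPases, from 41.5 to 48.3 (0.21). Of 22 tested autophagy genes 6 rose and 1 fell (median 0.10), and voom called 3 higher and 1 lower, beside 18.3% of all genes higher. Optn, an autophagy receptor, rose from 5.54 to 8.38 FPKM (0.52), Atg12 from 28.4 to 33.2 (0.22), and Wipi1, which acts at the forming autophagosome, fell from 26.3 to 21.9 (-0.25).

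Positions in the table follow the C57BL/6NJ strain assembly and differ from the GRCm38.p6 positions of the promoters above. Ctsd (MGP_C57BL6NJ_G0033748) lies on chromosome 7 from 152973019 to 152989905, minus strand, and Ctsl (MGP_C57BL6NJ_G0021066) on chromosome 13 from 66459209 to 66466354, minus strand. Ctsk (MGP_C57BL6NJ_G0028004) lies on chromosome 3 from 99797787 to 99809616 and Ctss (MGP_C57BL6NJ_G0028005) beside it from 99827026 to 99861070, both on the plus strand. Neighbours on the chromosome, they differed at 50 µM, where Ctsk was at 30.1 FPKM against 39.2 without alginate and Ctss at 25.9 against 25.4. Tfeb (MGP_C57BL6NJ_G0024263) is on chromosome 17 from 50995120 to 51060064, plus strand, and Atp6v1d (MGP_C57BL6NJ_G0020262) on chromosome 12 from 81451310 to 81473676, minus strand. All 37 members are annotated as protein-coding, and a value covers all exons that the authors counted for the gene.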

How the data were processed

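The authors deposited 1 table of FPKM values per gene and library, per the file headers. The aligner is not given in the sources used here, nor is the counting tool or the use of strand. Per the submitters' processing notes the builds are GRCm38 and mm10, whereas the gene identifiers are those of C57BL/6NJ. The libraries were made with a SMARTER mRNA kit, per the labels' protocols. FPKM times gene length gave whole multiples of 1 number per library for 100% of values (tolerance 0.01 read), so whole reads were rebuilt and used for 2 alternatives (scaling to total reads, and voom). The deposited values already carry a scaling factor per library, which differed by dose. It was 0.969 to 0.976 of the reads at 100 µM and 1.01 to 1.03 at 0 µM and 50 µM. A smaller factor gives a higher FPKM for the same reads. The median log2 fold change of all genes at 100 µM against 0 µM was 0.01 with the deposited values. It was -0.05 after scaling to total reads, -0.06 after rescaling to a common sum and -0.06 with voom.

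The 12635 genes that reached 1 FPKM in 3 or more of 9 libraries were fitted in limma 3.58.1 (R 4.3.3), on log2(FPKM + 1), with 1 mean per dose, all 9 libraries and trended variances. Comparisons were two-sided, with Benjamini-Hochberg adjustment over all genes tested. The procedure was tested on simulated reads. Tables were handled in Python 3.11.15 with pandas 2.3.3.

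The 37 members, the 12 other lists (188 genes, 184 found) and the tests were chosen with earlier results of these data known. Given in full were the called members with the 6 largest increases and the 6 largest decreases at 100 µM, with Tfeb, Mcoln1, Lamp1, Lamp2, Lipa, Ctsb, Ctsd, Ctsk, Ctsl and Ctss, and in brief the 3 genes of each list with the smallest p. Other genes were named after their values were seen. One list gene that met this rule is not reported here. The alternatives covered the pseudocount, the filter, 4 scalings, voom, 2 groups only, a replicate block and each library left out. Promoters are from RefSeq (GRCm38.p6).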

Additional observations from a re-analysis of the deposited data

How the results depend on the processing

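No result changed direction past the threshold. Of the 18 members called at 100 µM against 0 µM, 11 kept their call under all 19 alternatives, and at 100 µM against 50 µM 6 of 11 did. Rescaling to a common sum gave 7 members higher (main 11) at 100 µM against 0 µM. Members lower there (main 7) became 11 with a common sum or total reads, 12 with quantile normalization and 13 with voom, and genes lower (main 1965) became 3010 with voom. Over all genes the common sum split calls into 1630 higher and 2633 lower. At 100 µM against 50 µM, genes higher (main 1663) became 1060 with a common sum and 1102 with total reads, and genes lower (main 1510) became 2508 with voom. Members higher there (main 8) became 5 with total reads, and members lower (main 3) became 9 with a common sum or quantile normalization and 10 with total reads or voom. At 50 µM against 0 µM, genes higher (main 45) were 6 without a filter, 101 with a filter at 5 FPKM, 180 with voom and 0 with 2 groups only, and genes lower (main 55) were 6, 107, 183 and 0. Members lower there (main 0) were 1 with the 5 FPKM filter, a common sum or quantile normalization and 2 with voom. The cause of these differences was not tested.

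With each library left out in turn, members called at 100 µM against 0 µM ranged from 8 to 11 higher and 5 to 7 lower. At 50 µM against 0 µM, genes ranged from 0 to 53 higher and 0 to 59 lower, and members lower from 0 to 1. They fell to 0 genes in both directions without the 0 µM library 1, the 0 µM library 2 or the 50 µM library 2. Members lower at 100 µM against 50 µM ranged from 1 to 4, with 1 without the 50 µM library 1, and members called over the 3 doses from 10 to 17 (main 18), with 10 without the 100 µM library 2.

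Library numbers did not pair the libraries. Same-numbered libraries correlated at -0.0941 to 0.0412 in their deviations from the dose means, and only 1 of 9 correlated best with its own number. With a replicate block, 10 members were higher and 7 lower at 100 µM against 0 µM, 0 genes were called in either direction at 50 µM against 0 µM, and 11 members were called over the 3 doses (main 18). Depth limits Atp6v0c (6 to 30 reads per library) and Tfeb, which could not be tested with the 5 FPKM filter.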

Other observations

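The members that were lowest at 50 µM included 3 genes besides Ctsf with libraries clear of the 0 µM libraries, picked here after their values were seen. Over all genes tested, the libraries of these doses did not overlap for 20.7%. Picking genes that are lowest at 50 µM makes such a gap more likely. Gaa was at 43.4, 41.8 and 41.3 FPKM at 0 µM, 39.9, 37.1 and 37.3 at 50 µM, and 42.5, 41.3 and 43.2 at 100 µM. Glb1 was at 25.7, 29.1 and 25.3 FPKM at 0 µM, 23.3, 21.7 and 24.7 at 50 µM, and 24.1, 24.5 and 24.9 at 100 µM. Lamp2 had the values given above. None of these passed the limma test at 50 µM against 0 µM (limma adjusted p = 0.15 for Gaa, 0.196 for Glb1 and 0.191 for Lamp2), and Gaa rose from 50 µM to 100 µM.

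Mitf, a relative of Tfeb in the same factor family, fell from 3.31 to 2.45 FPKM at 100 µM against 0 µM while Tfeb rose, and Tfe3 did not pass (log2 fold change -0.02).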
